A study of Mus musculus with 6 samples.

Results

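The chromatin accessibility of the 3 genes that encode the peroxisome proliferator-activated receptors, Pparg, Ppara and Ppard, was examined in inguinal white preadipocytes at day 0, before the differentiation medium was added. ATAC-seq, in which the transposase Tn5 inserts sequencing adapters into open chromatin, had been carried out on 3 libraries of wild type (WT) cells and 3 libraries of double knockout (DKO) cells, which lack both Hmgn1 and Hmgn2. HMGN1 and HMGN2 are proteins that bind nucleosomes. Both genotypes were on the C57BL/6 strain, and both kinds of cells had been isolated from inguinal white adipose tissue and grown on collagen-coated plates, so they are cultured cells that went through proliferation and replating and not fresh tissue. The labels do not say whether the libraries of a genotype came from separate animals, and the p-values below therefore measure the spread between these libraries, which may be technical. Members were the lines of the peak lists whose summit lay in the body of 1 of the 3 genes or within 50 kb of it (mm10, GENCODE M21). There were 981 such summits, 329 at Pparg, 225 at Ppara and 427 at Ppard, out of close to 300000 in each of the 6 lists. They fell into 114 windows of 501 bp out of 246986 in all. Of these windows 87 (33 at Pparg, 18 at Ppara and 36 at Ppard) reached a q under 0.01 in at least 2 libraries and were tested among 179248 windows.

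The PPARs are nuclear receptors that bind DNA as heterodimers with a retinoid X receptor at repeats of a short half-site, and that switch genes on when a fatty acid or a drug ligand is bound. PPARγ is the central regulator of fat cell formation. It is made in 2 forms from separate promoters of 1 gene, Pparg1, which many cells transcribe, and Pparg2, which is largely specific to fat cells. PPARα drives fatty acid oxidation and is known for its part in liver and brown fat, and PPARδ, encoded by Ppard, is expressed in most tissues. The study was interested in Pparg and Ppara because both receptors promote the browning of white adipocytes, that is, the gain of heat-producing features of brown fat. The comparison asked whether the promoters and the distal sites around these genes were more or less accessible in DKO than in WT cells.

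Each value below is the fold enrichment that the authors' peak caller gave to a summit, which is the pileup of Tn5 cut sites over the local background level of that library. Where a window held several summits the highest was taken. All 6 lists had been cut to the best 300000 peaks, so a summit that is not listed lay under the limit of that list and the site was not shown to be closed. Fold changes were computed on quantile-normalized log2 fold enrichment (DKO minus WT), with unlisted windows set to the lowest value of the list, and were tested with limma and Benjamini-Hochberg adjustment over all tested windows. DKO replicate 3 had the lowest background, with a commonest value of 2.05 cut sites against 2.41 to 2.58 in the others, and its list reached down to the smallest −log10 p (3.54, against 5.63 in WT replicate 3). As a check of the labels, both windows at Hmgn2 were absent from all 3 DKO lists. Their pileups in the WT libraries were 42, 39 and 52 in one (limma adjusted p = 0.0312) and 41, 31 and 44 in the other (limma adjusted p = 0.0659). Of 8 preadipocyte markers 7 had a promoter window, with mean fold enrichments of 4.31 to 9.14, Ly6a being the exception. None of 4 mature adipocyte, 3 mesothelial or 3 muscle markers had one. All 4 endothelial markers had one, with means of 5.09 to 15.6. The Cdh5 window was listed in the 3 DKO libraries and in no WT library (limma adjusted p = 0.142), and the Pecam1 window was lower in DKO by 0.31 ± 0.11 on the log2 scale (SE, limma adjusted p = 0.297). Of 4 immune markers 2 had one, Cd68 in all 6 libraries and Adgre1 in 2 DKO libraries only, and Ptprc and Cd3e had none. The part of other cell types in the results below was not tested.

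The sequences at the centre of the windows on which the results turn are given here from the mouse genome (GRCm38, mm10, plus strand), with matches to the motifs described further below in capitals. The first group are the promoters. The Pparg2 window is shown because it holds the stretch the study amplified in its chromatin immunoprecipitation, and capitals mark a C/EBP match. The Ppara and Ppard windows are the strongest at the main promoters of those genes, and capitals mark SP/KLF matches.
Pparg2 promoter, chr6:115421681-115421881: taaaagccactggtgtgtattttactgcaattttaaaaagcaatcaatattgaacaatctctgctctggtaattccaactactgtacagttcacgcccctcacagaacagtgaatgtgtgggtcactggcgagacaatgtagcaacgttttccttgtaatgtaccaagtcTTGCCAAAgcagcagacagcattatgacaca
Ppara promoter, chr15:85735256-85735456: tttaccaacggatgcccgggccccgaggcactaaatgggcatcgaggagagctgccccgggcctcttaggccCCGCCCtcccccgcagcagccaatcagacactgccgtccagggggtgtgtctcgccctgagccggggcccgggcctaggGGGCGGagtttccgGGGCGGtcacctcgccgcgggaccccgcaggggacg
Ppard promoter, chr17:28232524-28232699: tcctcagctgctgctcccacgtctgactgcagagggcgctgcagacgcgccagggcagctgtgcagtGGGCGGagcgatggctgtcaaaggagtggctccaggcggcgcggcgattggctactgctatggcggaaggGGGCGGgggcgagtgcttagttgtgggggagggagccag

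The second group are distal sites. The Pparg coding exon site was the most accessible window of the Pparg locus, and capitals mark TEAD, SP/KLF and AP-1 matches in that order. The Pparg upstream site held 2 AP-1 matches. The Pparg intron site was listed in WT only and the Ppara upstream site in DKO only, and neither held a match to any motif searched. Of the 2 Ppard intron sites the first held an AP-1 match and the second held none.
Pparg coding exon site, chr6:115463066-115463266: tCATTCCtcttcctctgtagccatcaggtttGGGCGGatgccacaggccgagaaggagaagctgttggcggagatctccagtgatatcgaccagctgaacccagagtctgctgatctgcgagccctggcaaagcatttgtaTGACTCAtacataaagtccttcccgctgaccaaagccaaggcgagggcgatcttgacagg
Pparg upstream site, chr6:115323106-115323306: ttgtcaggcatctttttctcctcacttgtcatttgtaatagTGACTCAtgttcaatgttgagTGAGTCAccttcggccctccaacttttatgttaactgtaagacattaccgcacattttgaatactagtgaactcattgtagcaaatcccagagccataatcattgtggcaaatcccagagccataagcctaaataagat
Pparg intron site, chr6:115365061-115365261: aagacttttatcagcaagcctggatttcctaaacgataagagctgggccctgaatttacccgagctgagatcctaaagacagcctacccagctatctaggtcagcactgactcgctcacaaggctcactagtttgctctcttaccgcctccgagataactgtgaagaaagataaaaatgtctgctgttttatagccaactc
Ppara upstream site, chr15:85698814-85699014: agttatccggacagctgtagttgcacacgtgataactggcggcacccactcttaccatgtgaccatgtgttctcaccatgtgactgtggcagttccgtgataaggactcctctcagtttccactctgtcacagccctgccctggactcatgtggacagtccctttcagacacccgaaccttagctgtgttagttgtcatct
Ppard intron site 1, chr17:28280594-28280794: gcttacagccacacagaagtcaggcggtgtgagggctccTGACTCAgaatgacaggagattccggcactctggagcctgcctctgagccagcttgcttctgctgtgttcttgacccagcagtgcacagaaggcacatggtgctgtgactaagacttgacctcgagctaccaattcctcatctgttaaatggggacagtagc
Ppard intron site 2, chr17:28259951-28260151: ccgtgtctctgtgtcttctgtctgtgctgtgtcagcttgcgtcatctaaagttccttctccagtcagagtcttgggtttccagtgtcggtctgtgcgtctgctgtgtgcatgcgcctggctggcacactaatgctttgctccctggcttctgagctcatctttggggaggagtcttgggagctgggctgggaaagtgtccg

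The promoters of Pparg were only weakly accessible, and no difference between WT and DKO cells was detectable at the 3 of 5 that had a tested window. Pparg (chromosome 6, 115360951 to 115490399, plus strand) has 7 annotated transcription start sites (TSS), which were joined into 5 promoters where they lay within 500 bp. The transcript names do not give the form of the receptor. The promoter at the start of the gene (TSS 1) is called Pparg1 here. TSS 2, which was not tested, also lies upstream of the Pparg2 promoter and starts protein-coding transcripts. The Pparg1 promoter had a window centred 523 bp downstream of the TSS, in the first intron (115361224 to 115361724). Its fold enrichment was 4.92 and 3.98 in WT replicates 1 and 2, and 3.63, 4.53 and 3.57 in DKO replicates 1 to 3. WT replicate 3 listed no summit in the window, but listed one beside it with 4.11, 156 bp from the TSS and so nearer to it than the window centre. DKO replicates 1 and 3 also had summits beside the window that were higher than those in it, with 5.03 and 4.59. The values of the genotypes overlapped. The log2 change was 0.38 ± 0.43 (SE, limma adjusted p = 0.759), and it came to rest on the unlisted library, being −0.13 without WT replicate 3 and 0.055 in windows that reached 500 bp to each side.

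The Pparg2 promoter (TSS 4, at 115422066) had a window at 115421531 to 115422031, centred 285 bp upstream of the TSS in an intron of the longer transcripts. It was not listed in WT replicate 1, and reached 3.98 and 6.16 in WT replicates 2 and 3 and 3.35, 4.53 and 3.93 in the DKO libraries. The highest listed value was WT, and the DKO values lay on both sides of the lower WT value. The log2 change was 0.36 ± 0.44 (SE, limma adjusted p = 0.775) and turned to −0.17 without WT replicate 1. The summits rested on 13 and 20 cut sites in WT and on 11, 15 and 11 in DKO, close to the lowest pileups at this locus (8 to 12).

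Of the remaining Pparg promoters, TSS 3 (at 115383699) had a window with 4.09 and 4.99 in WT replicates 1 and 3 and 5.31 and 3.28 in DKO replicates 1 and 3, and replicate 2 of both genotypes was not listed (log2 change 0.11 ± 0.55, SE, limma adjusted p = 0.984). Its sign turned without scaling (−0.060) and over the fits that left out 1 library the change ran from −0.36 to 0.62. TSS 2 (115362292 to 115362350) was listed in DKO replicate 2 only, with a fold enrichment of 5.95, and TSS 5 (115439975, a retained-intron transcript) in WT replicate 3 only, with 3.82. Neither was tested. The promoters were ranked by mean normalized fold enrichment against the strongest promoter window of each of 14565 protein-coding genes. The 3 tested Pparg promoters were at the 7.02nd to 9.91st percentile. Single promoters of a gene are thus set against the best promoter of other genes, here and for Ppara and Ppard below.

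The main promoter of Ppara was much more accessible than those of Pparg and had lower values in every DKO library than in any WT library, but the difference did not pass the adjusted test. Ppara (chromosome 15, 85734983 to 85802819, plus strand) has 6 annotated TSS in 3 promoters. The window at 85735106 to 85735606, centred 208 bp from the nearest TSS of TSS 2, reached 16.5, 13.5 and 17.7 in the WT libraries against 10.4, 11.4 and 10.6 in the DKO libraries, or 15.9 ± 2.14 and 10.8 ± 0.54 (SD, n = 3 each). The pileups were 75, 59 and 74 cut sites in WT and 46, 57 and 38 in DKO. The log2 change was −0.39 ± 0.10 (SE, unadjusted p = 0.00346, limma adjusted p = 0.171). It stayed between −0.42 and −0.35 when each library was left out in turn, and its adjusted p ranged from 0.114 to 0.386 over all 14 alternatives. A change at least as negative was found in 17.7% of all tested windows, many of them weaker and with larger errors, and 3634 windows had a p as small. The window ranked at the 58.9th percentile of the protein-coding promoters.

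A second, weaker window of the same Ppara promoter, at 85735705 to 85736205 in the 5′ UTR, had 4.07, 4.11 and 4.43 in WT and 3.02, 3.12 and 3.23 in DKO. Again all 3 DKO libraries lay below all 3 WT libraries, but the log2 change was −0.29 ± 0.29 (SE, limma adjusted p = 0.717). Between the windows, and part of neither, lay a summit in each DKO library (3.25, 4.93 and 2.99) and in WT replicate 2 (3.52). Both windows belong to 1 promoter, centred 599 bp apart, and are not independent. TSS 1 of Ppara (85734983) had a window in DKO replicate 1 only (3.11), and TSS 3 (85772214) had none.

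Ppard (chromosome 17, 28232700 to 28301474, plus strand) has 9 annotated TSS in 3 promoters, of which 2 were at the 37.6th (TSS 1) and the 54.3rd (TSS 3) percentile of protein-coding promoters, with scaled values that overlapped between the genotypes. The window of TSS 1, at the start of the gene (28232374 to 28232874), reached 10.6, 8.81 and 9.66 in the WT libraries against 7.51, 8.61 and 8.55 in the DKO libraries. The DKO values were lower before scaling, whereas after quantile normalization the log2 change was −0.049 ± 0.15 (SE, limma adjusted p = 0.951). TSS 3 (28293246), inside the gene, had a window at 28293610 to 28294110 with 11.7, 12.7 and 13.9 in WT and 11.8, 11.6 and 11.9 in DKO (log2 change 0.054 ± 0.13, SE, limma adjusted p = 0.915). Without scaling the same change was −0.11.

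The weaker Ppard promoter windows were less certain. A side window of TSS 1, centred 390 bp from the nearest TSS, had 3.90, 3.76 and 3.29 in WT and 3.33, 5.22 and 2.74 in DKO (log2 change 0.18 ± 0.35, SE, limma adjusted p = 0.885). TSS 2 (28271708 to 28272119) had a window at 28272029 to 28272529 that was listed in all 3 WT libraries, with 3.90, 3.98 and 3.82, and only in replicate 3 of DKO, with 3.28. Its log2 change was −0.87 ± 0.43 (SE, unadjusted p = 0.0711, limma adjusted p = 0.456), and ran from −1.31 to −0.667 when each library was left out in turn. The unlisted DKO values were set to the lowest fold enrichment of their lists, so this is no fold change of accessibility. The WT summits rested on 13, 13 and 12 cut sites.

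**Figure D1:**
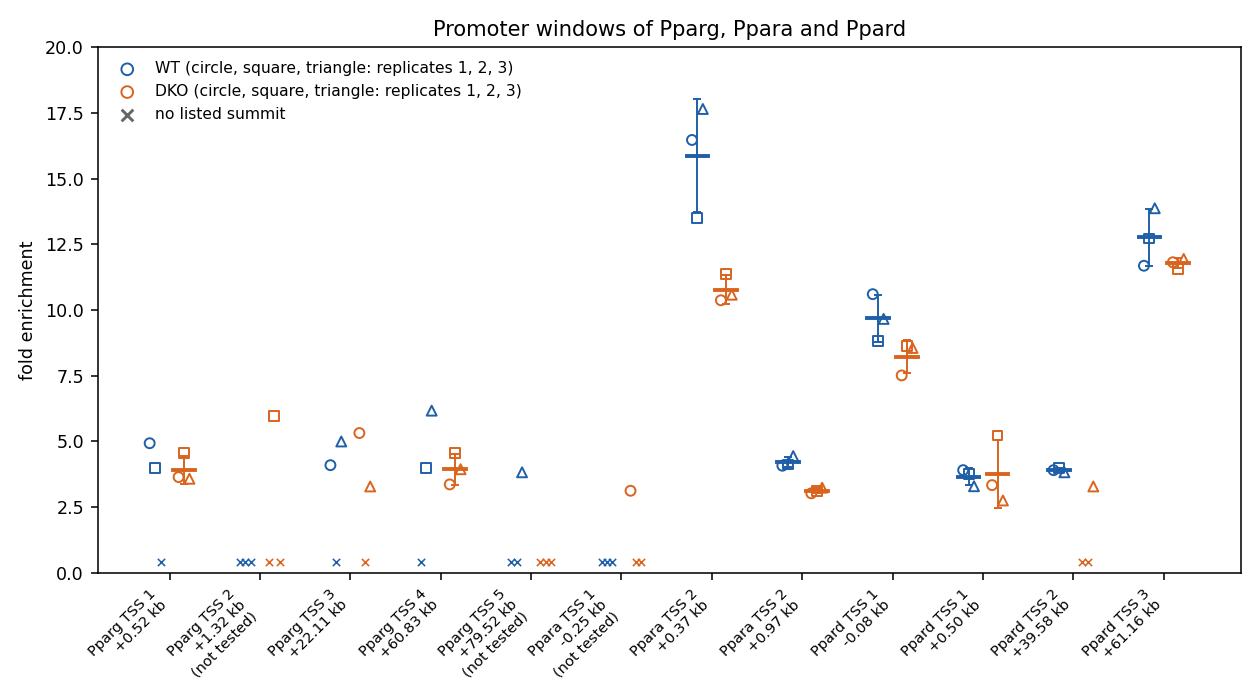
Fold enrichment (y axis) of the 12 promoter windows of the 3 genes (x axis, with the distance of the window centre from the gene start), per library, with the mean and SD where all 3 libraries of a genotype had a listed summit. The Ppara TSS 2 window is the one where the WT libraries (13.5 to 17.7) and the DKO libraries (10.4 to 11.4) are farthest apart.

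The order of the promoters was next compared within libraries, which needs no scaling between lists. This comparison was chosen after the values had been seen and is a description. In WT the order was Ppara (15.9 ± 2.14), Ppard TSS 3 (12.8 ± 1.10) and Ppard TSS 1 (9.69 ± 0.90, SD, n = 3), and the first 2 overlapped in range. In DKO Ppard TSS 3 came first (11.8 ± 0.20), ahead of Ppara (10.8 ± 0.54) and Ppard TSS 1 (8.22 ± 0.62). The ratio of Ppara to Ppard TSS 3 was 1.41, 1.06 and 1.27 in WT and 0.877, 0.985 and 0.886 in DKO. The ratio of Ppara to Ppard TSS 1 was 1.55, 1.53 and 1.83 in WT and 1.38, 1.32 and 1.24 in DKO. In both ratios every DKO library lay below every WT library, whereas the ratio of the 2 Ppard promoters overlapped (1.10 to 1.44 in WT and 1.34 to 1.57 in DKO). All other promoter windows had means of 3.12 to 4.20 where they were listed in all libraries of a genotype.

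The rank of each promoter in its list, ordered by p, gave the same picture. The best summit of the stronger Ppara window was among the top 7.35%, 8.41% and 10.98% of the WT lists and the top 16.7%, 13.3% and 13.8% of the DKO lists (exact permutation p = 0.10, two-sided, the smallest that 3 against 3 allows). The weaker Ppara window was at 66.9%, 56.1% and 75.4% in WT and at 93.8%, 87.2% and 79.4% in DKO (exact permutation p = 0.10). It belongs to the same promoter and adds no independent evidence. Distal windows of the loci reached this p too, in both directions. The Pparg site at 115519514 ranked better in WT, and the Ppard sites at 28280694 and 28260051 ranked better in DKO. The share over all windows was not computed. The ranks of Ppard TSS 1 (10.7% to 15.1% in WT, 12.5% to 18.4% in DKO, exact permutation p = 0.40) and of Ppard TSS 3 (9.67% to 15.9% and 9.75% to 14.4%, exact permutation p = 0.60) overlapped. No Pparg promoter had a summit in all 6 lists to rank.

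**Figure D2:**
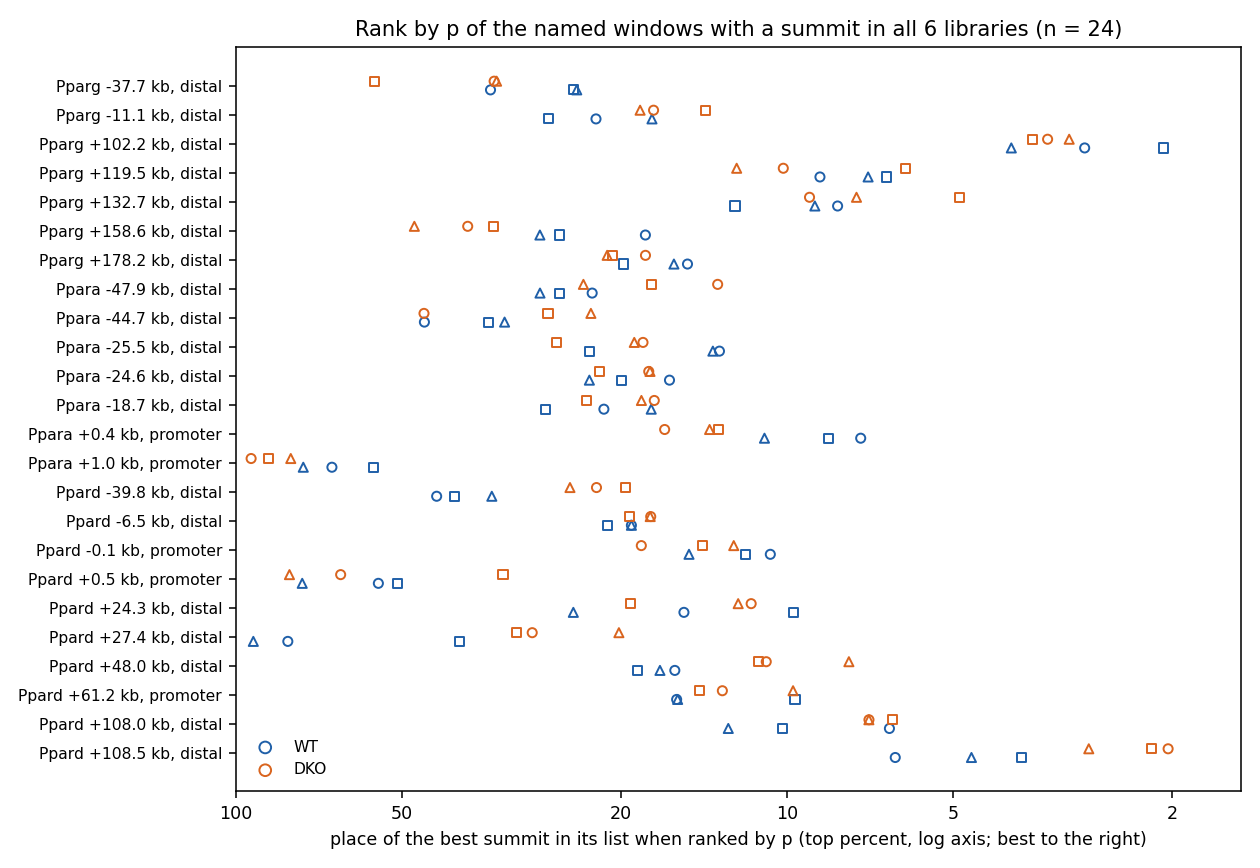
Place of the best summit in its list when the list is ordered by p (x axis, top percent, log axis) for the 24 named windows with a listed summit in all 6 libraries, by distance from the gene start. Circles, squares and triangles are replicates 1, 2 and 3. The 3 WT values of the Ppara promoter (7.35% to 10.98%) lie to the right of the 3 DKO values (13.3% to 16.7%).

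The strongest windows of the Pparg locus were distal sites in the gene body and the flanks. The strongest of 29 tested distal windows, at 115462916 to 115463416, covered a coding exon and was centred 102215 bp from the gene start. Its fold enrichment was 20.3, 19.7 and 20.8 in the WT libraries and 18.2, 18.6 and 18.1 in the DKO libraries. Although the listed values did not overlap, the log2 change after scaling was −0.023 ± 0.10 (SE, limma adjusted p = 0.978), and it was 0.038 with median centring. The summit ranked in the top 2.08% to 3.92% of every list. The other strong Pparg windows were an intron site at 115480187 to 115480687, with values of 10.002 to 15.9 over the 6 libraries, and 3 intergenic sites. These were centred at 115349879, upstream of the gene (7.97 to 15.5), at 115493698, just past its end (9.94 to 14.7), and at 115539137 (8.30 to 14.9). Intron sites nearer the gene start, centred at 115390491 (mean 9.79 in WT and 8.21 in DKO) and 115424582 (8.92 and 6.01), were listed in all 6 libraries as well, with log2 changes of −0.058 ± 0.15 and −0.42 ± 0.23 (SE, limma adjusted p = 0.932 and 0.458). The log2 changes of the 4 stronger sites were between −0.16 and 0.24, and their adjusted p-values were 0.458 or higher.

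Only 2 Pparg windows had an unadjusted p under 0.05, both lower in DKO. The first was an intron site 2811 bp from the nearest TSS (115364911 to 115365411). Its fold enrichment was 5.93, 3.13 and 5.38 in WT, and no DKO library listed it (log2 change −1.51 ± 0.37, SE, unadjusted p = 0.00226, limma adjusted p = 0.161). The pileups were 21, 10 and 18 cut sites. Because the DKO values were set to the lowest fold enrichment of their lists (1.53 to 1.55), this change is no fold change of accessibility. The WT replicate 2 summit, with the lowest pileup of that list at this locus (10), already had 3.13. Part of the change, and of its p, therefore rests on the value that was set. The adjusted p ranged from 0.0201 to 0.353 over 12 alternatives, and was under 0.05 only without the mean-variance trend. The second was intergenic, at 115519264 to 115519764, with 9.42, 6.66 and 8.36 in WT and 5.56, 6.18 and 4.28 in DKO (log2 change −0.43 ± 0.19, SE, limma adjusted p = 0.406). The upstream site with 2 AP-1 matches, at 115322956 to 115323456, had 7.88, 8.54 and 12.6 in WT and 7.27, 5.10 and 6.55 in DKO. All 3 DKO libraries lay below the WT libraries as listed, but the scaled values overlapped (log2 change −0.41 ± 0.19, SE, limma adjusted p = 0.439). The change ran from −0.541 to −0.235 when each library was left out in turn.

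Ppara differed from the other loci in having no tested window in its gene body beyond the promoter. The body is 67837 bp long, and the only other windows in it were 2 that DKO replicate 3 alone listed, each with a pileup of 8. The 12 tested distal windows lay upstream, apart from 1 in an intron of Ttc38. Upstream of Ppara are the long non-coding RNA gene Lncppara and the microRNA genes Mirlet7b and Mirlet7c-2, which give rise to let-7 microRNAs. The strongest distal windows were intergenic, centred at 85716258 (9.84, 6.93 and 12.2 in WT, 9.78, 8.87 and 8.97 in DKO), at 85709468 (8.70, 6.07 and 9.74 in WT, 6.77, 5.92 and 6.65 in DKO) and at 85710375 (8.05, 6.60 and 7.57 in WT, 7.06, 6.72 and 6.99 in DKO). Their log2 changes were 0.16, −0.13 and 0.0995, with adjusted p-values from 0.685 to 0.845. The first and second of these each held a CTCF match. CTCF is a protein that marks chromatin loop boundaries. A window in Lncppara centred at 85690314 was also among the 5 strongest (4.03 to 5.94, log2 change 0.25 ± 0.25, SE, limma adjusted p = 0.721).

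The 3 Ppara distal windows with the smallest p were all higher in DKO. The site in an intron of Lncppara at 85698664 to 85699164, centred 36069 bp upstream of Ppara, was listed in no WT library and had 4.08, 2.85 and 3.45 in the DKO libraries. The log2 change was 1.23 ± 0.38 (SE, unadjusted p = 0.00777, limma adjusted p = 0.208), with pileups of 21, 13 and 13. Over 12 alternatives the adjusted p ranged from 0.0249 to 0.355 and was under 0.05 only without the trend. An intergenic window at 85708647 to 85709147, 1578 bp from Mirlet7b, was likewise listed only in DKO, with 2.45, 3.04 and 2.76 (log2 change 0.90 ± 0.38, SE, limma adjusted p = 0.389). As above, these 2 changes are measured from the lowest fold enrichment of the WT lists (1.49 to 1.57) and are no fold changes of accessibility. The third lay in an intron of Lncppara at 85686868 to 85687368 and was listed throughout, with 6.02, 5.41 and 5.98 in WT and 8.06, 6.89 and 5.76 in DKO (log2 change 0.41 ± 0.18, SE, limma adjusted p = 0.415). In this window DKO replicate 3 fell within the WT range before scaling. All 6 libraries had another summit beside the window on its upstream side. It had 3.99, 4.55 and 3.77 in WT and 4.22, 4.94 and 6.79 in DKO. Only in DKO replicate 3 was it higher than the summit in the window.

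At Ppard the 3 distal windows with the smallest p were higher in DKO too. The first was an intron site of the neighbouring gene Zfp523, at 28192647 to 28193147 and 39803 bp upstream of Ppard. Its values were 6.47, 5.98 and 9.69 in WT and 9.01, 10.5 and 8.08 in DKO, with WT replicate 3 inside the DKO range before scaling (log2 change 0.53 ± 0.15, SE, unadjusted p = 0.00535, limma adjusted p = 0.187). The second was the Ppard intron site at 28280444 to 28280944, 47994 bp from the gene start, with 10.05, 8.25 and 11.4 in WT and 11.04, 11.03 and 12.6 in DKO (log2 change 0.41 ± 0.13, SE, limma adjusted p = 0.219). The third was a Ppard intron site at 28259801 to 28260301. Here the groups were apart as listed, with 3.10, 4.91 and 3.17 in WT and 5.87, 5.89 and 6.80 in DKO, and pileups of 19, 27 and 20 against 40, 39 and 38. Slightly higher summits lay beside the window in WT replicates 1 and 3 (3.24 and 3.29). The log2 change of the window was 1.03 ± 0.34 (SE, unadjusted p = 0.0121, limma adjusted p = 0.249), the largest of any Ppard window.

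The Ppard distal window with the highest mean fold enrichment lay in an intron of Tead3, which encodes a TEAD transcription factor of the Hippo pathway. It was centred at 28341185 (9.21, 10.4 and 11.3 in WT, 12.4, 11.9 and 10.98 in DKO, log2 change 0.37 ± 0.13, SE, limma adjusted p = 0.295). A second Tead3 window, 513 bp away at 28340672, was weaker (7.43 to 9.33, log2 change 0.24 ± 0.16, SE, limma adjusted p = 0.513). A coding exon of Def6, 6450 bp upstream of Ppard, had values of 7.49 to 9.87 (log2 change 0.097 ± 0.13, SE, limma adjusted p = 0.797). A Ppard intron site centred at 28256961 had 9.68, 10.8 and 8.79 in WT and 9.90, 7.89 and 8.90 in DKO (log2 change 0.047 ± 0.20, SE, limma adjusted p = 0.974). Summits higher than those in the window lay beside it in WT replicates 1 and 3 (10.64 and 13.6) and in DKO replicate 2 (8.02), and in windows reaching 500 bp to each side the change was −0.19.

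**Figure D3:**
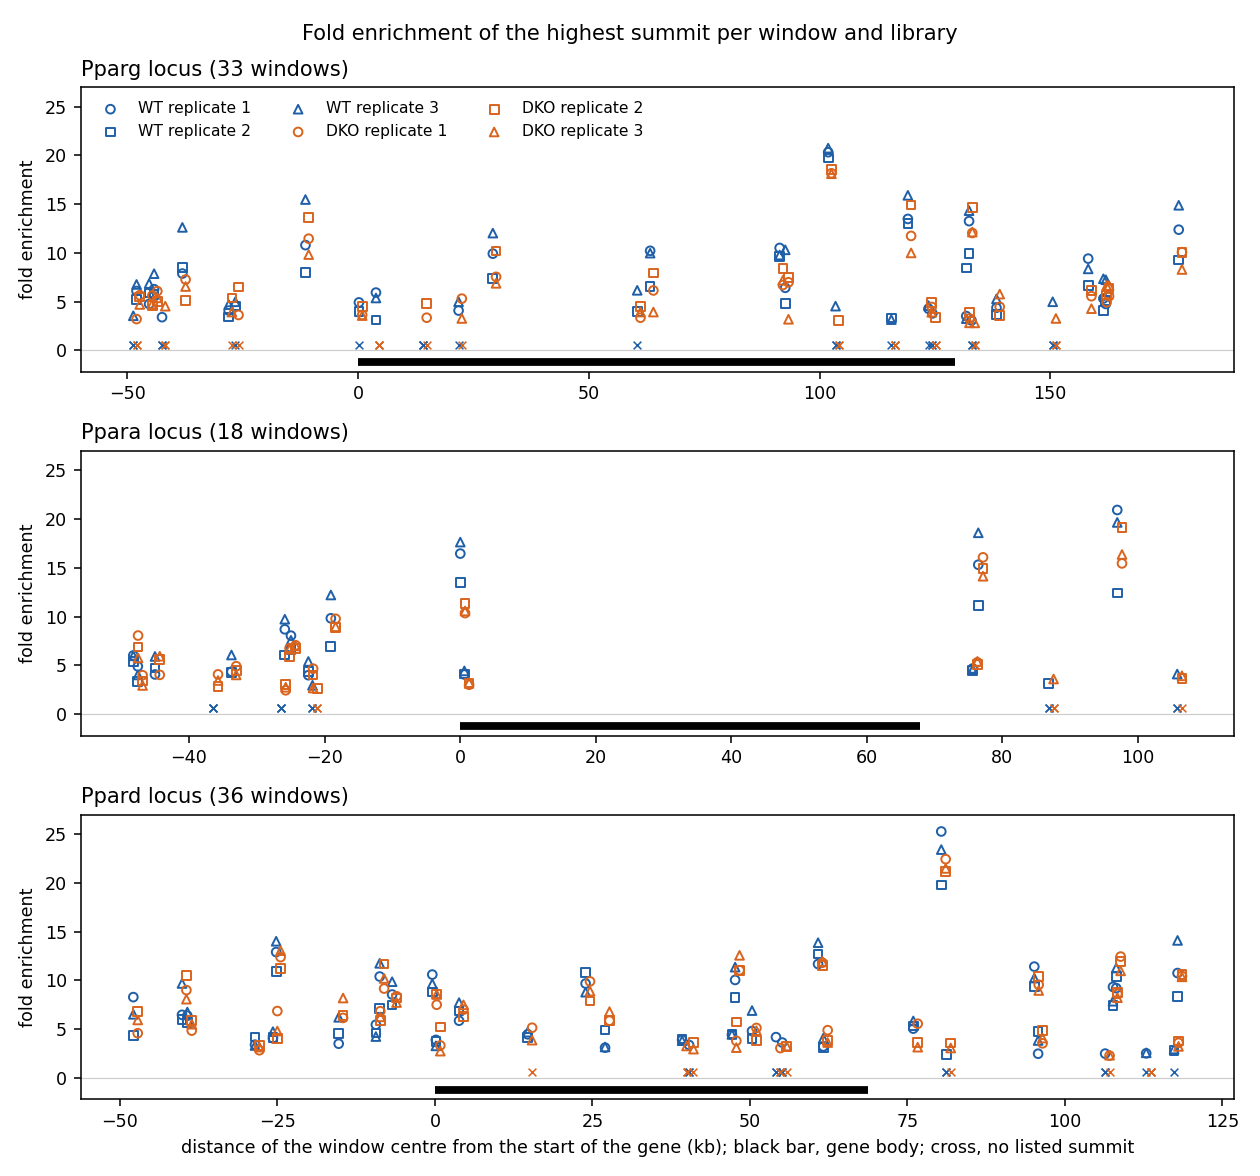
Fold enrichment of the highest summit (y axis) of the 87 tested windows per library against distance from the start of Pparg, Ppara or Ppard (x axis, kb). The gene body of Ppara beyond its promoter holds no tested window, and the highest values at Pparg (18.1 to 20.8) lie 102215 bp into the gene.

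Across the 3 loci 0 of 87 windows passed the adjusted limma test in either direction, with the smallest adjusted p at 0.161 for Pparg, 0.171 for Ppara and 0.187 for Ppard. Over all 179248 windows 0.0357% were called lower and 0.0234% higher in DKO, so that under 1 call would be found among 87 windows at that rate. At an unadjusted p under 0.05, 3 of the 87 windows were lower and 9 higher in DKO, where 6.1% of all windows were lower and 5.68% higher. Without scaling the balance turned to 6 lower and 2 higher, where 9.31% of all windows were lower and 2.3% higher. By gene the counts lower and higher were 2 and 0 of 33 at Pparg, 1 and 3 of 18 at Ppara, and 0 and 6 of 36 at Ppard. The normalized values of the genotypes did not overlap, with DKO lower, in 4 windows (7.67% of all windows) and, with DKO higher, in 15 (8.76% of all windows). Of those 15, 10 were at Ppard, 4 at Ppara and 1 at Pparg. The median log2 change was −0.032 at Pparg, 0.12 at Ppara and 0.15 at Ppard, and 0.010 over all windows. Without scaling these medians were −0.18, −0.029 and −0.022, where the median of all windows was −0.14, so that Ppara and Ppard lay above and Pparg below the general level with and without scaling. With the 50000 best summits of each list, where only 4 Ppara windows were left, the Ppara median was −0.15 and lay below the general level of 0.027. Windows at a locus are neighbours and are not independent replicates.

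**Figure D4:**
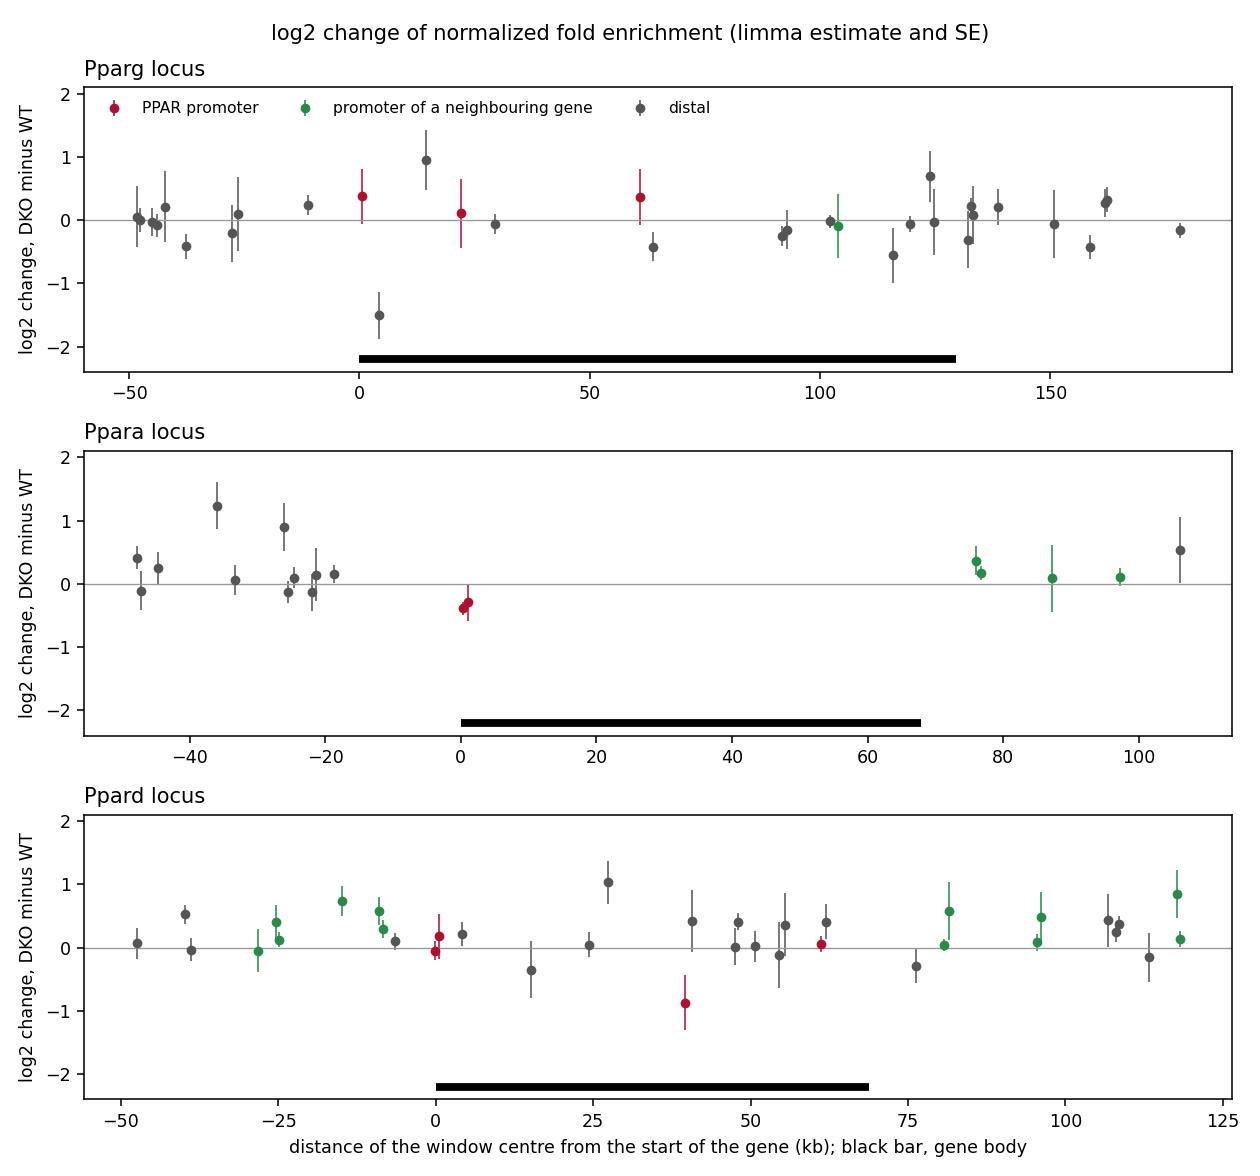
log2 change (y axis, DKO minus WT, limma estimate and SE) of the 87 tested windows against distance from the gene start (x axis, kb), with promoters of the PPAR genes, promoters of neighbouring genes and distal windows in separate colours. Of the Ppard windows 28 of 36 lie above 0, of which 11 are promoters of neighbouring genes, where 51.4% of all windows lie above 0, and both Ppara promoter windows lie below 0.

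The central 201 bp of every tested window was searched for motifs, both strands included, as a description of the sequences and not of binding. AP-1, the family of FOS and JUN proteins whose members FRA2 and JUN the study examined at Pparg and Ppara, was searched as TGAGTCA. It was found in 16 of the 87 windows (18.4%, against 23.6% of all windows), 8 at Pparg, 2 at Ppara and 6 at Ppard. The median log2 change of these 16 windows was 0.23, with 6 below and 10 above 0, and that of all 42277 windows with the motif was 0.0076. The 71 windows at the loci without the motif had a median of 0.083, with 26 below and 45 above 0, a similar share above 0. C/EBP (TTGCNNAA), the motif of factors that act with PPARγ in fat cell formation, was found in 17 windows (19.5%, against 12.03%), of which 11 were at Pparg. The median change of those 17 was −0.0013, and that of all windows with the motif was −0.053. SP/KLF (GGGCGG), bound by factors of GC-rich promoters, was found in 14 windows (16.1%, against 9.97%), TEAD (GGAATG) in 8 (9.20%, against 16.3%) and CTCF in 3 (3.45%, against 3.07%). EBF (TCCCNNGGGA, 0.755% of all windows) and the PPAR/RXR repeat (AGGTCANAGGTCA, 0.0273% of all windows) were found in none of the 87. Among the promoters, the stronger Ppara window held 3 SP/KLF matches and no AP-1 match, the Pparg1 window held an AP-1 match (TGACTCA at 115361567 to 115361573), and the Pparg2 window held the C/EBP match TTGCCAAA at 115421851 to 115421858.

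The primers that the study used for chromatin immunoprecipitation were placed on the genome to see which windows they report on. The Pparg amplicon (115421842 to 115421965, 124 bp) lay wholly inside the Pparg2 window, 163 bp from TSS 4, and its forward primer covered the C/EBP match. The Ppara amplicon (85734586 to 85734693, 108 bp) overlapped no tested window. It lay upstream of TSS 1, 717 bp from the centre of the stronger Ppara window, where only DKO replicate 1 had a listed summit. The forward Ppara primer had 2 mismatches to mm10, so that its place rests on the reverse primer, which had 0. Neither amplicon held an AP-1 match.

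Genes that act with the PPARs were examined at their promoters. The list held 44 genes, namely RXR partners, coactivators, corepressors, regulators of Pparg and target genes, and 38 of them had a tested window. The 6 without one were the targets Plin1, Adipoq, Cpt1b, Cidec and Ucp1, most of which mark mature fat cells, and the coactivator gene Ppargc1a. With the limma test 0 of 38 passed the adjusted threshold, the smallest adjusted p being 0.220. At an unadjusted p under 0.05, 0 were lower and 4 higher, where 2.76% of all 13383 protein-coding promoter windows were lower and 9.55% higher. The median log2 change of the 38 was 0.097, with 13 below and 25 above 0. Over all protein-coding promoter windows the median was 0.069 and 64.3% lay above 0, so that the share of the pathway genes was close to the background.

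The 3 pathway promoters with the smallest p were higher in DKO. Jun, which encodes an AP-1 subunit (chromosome 4, 95051952 to 95052452), reached 8.81, 9.33 and 9.49 in the WT libraries against 11.8, 10.9 and 10.7 in the DKO libraries, and the genotypes did not overlap (log2 change 0.45 ± 0.14, SE, limma adjusted p = 0.220). Crebbp, which encodes the acetyltransferase CBP (chromosome 16, 4213918 to 4214418), had 8.26, 8.30 and 13.0 in WT and 11.6, 10.3 and 10.6 in DKO, so that the highest and the lowest library were both WT (log2 change 0.35 ± 0.14, SE, limma adjusted p = 0.372). Rxrb, a PPAR partner (chromosome 17, 34031322 to 34031822), had 4.72, 7.56 and 7.16 in WT and 7.93, 8.03 and 8.16 in DKO (log2 change 0.52 ± 0.21, SE, limma adjusted p = 0.385). The fourth was Cebpa, a partner of PPARγ in adipogenesis, with a change of 0.37 ± 0.15 (SE, limma adjusted p = 0.388). Of the targets, Fabp4, a lipid chaperone of fat cells, was accessible already at day 0 (15.9 to 17.4 in WT, 12.9 to 14.2 in DKO, log2 change −0.17 ± 0.11, SE, limma adjusted p = 0.489), and Lpl, the lipase that frees fatty acids from lipoproteins, had 4.04 to 5.02 in WT and 5.17 to 5.63 in DKO (log2 change 0.46 ± 0.21, SE, limma adjusted p = 0.432). By role, 11 of 14 regulators and 6 of 8 coactivators had a change above 0, as had 3 of 5 corepressors, 4 of 8 targets and 1 of 3 RXR partners.

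**Figure D5:**
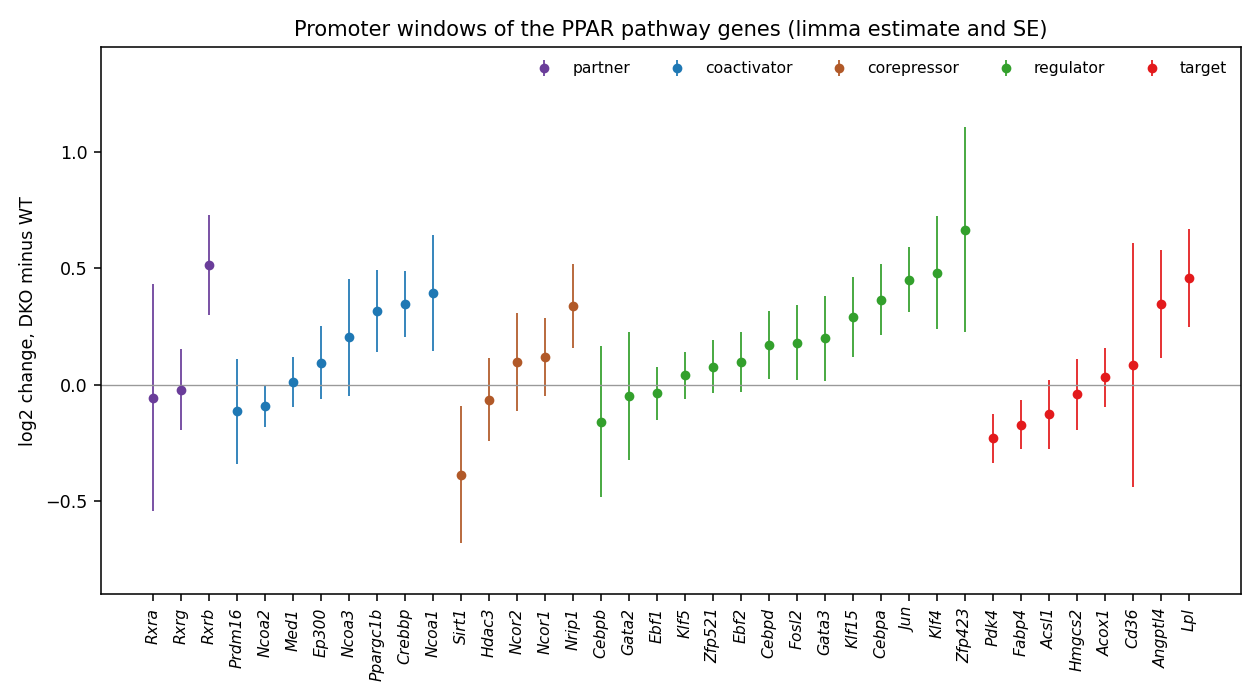
log2 change (y axis, DKO minus WT, limma estimate and SE) of the promoter windows of 38 PPAR pathway genes (x axis), grouped by role. Values run from −0.39 (Sirt1) to 0.67 (Zfp423), and 25 of 38 lie above 0.

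Finally, the protein-coding promoters whose normalized log2 values over the 6 libraries were closest to each PPAR promoter were listed by Euclidean distance. For the stronger Ppara window they were Hbq1b (distance 0.159), and Milr1 and Pecam1, which share 1 window (0.190). For Ppard TSS 1 they were Ccdc157 and Sf3a1, which share 1 window (0.108), and Gja1 (0.164), and for Ppard TSS 3 they were Vps26c (0.107), Ubald1 (0.130) and Ndufs7 (0.152). For the Pparg1 window they were Ins2 (0.265), a (0.309) and Fam83a (0.338), and for the Pparg2 window Prr18 (0.370), Arhgef26 (0.373) and Ttpa (0.384). Of other promoter windows, the nearest was Olfr229 for Pparg TSS 3 (0.395), Tmigd1 for the weaker Ppara window (0.231) and L1td1 for Ppard TSS 2 (0.168).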

How the data were processed

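The 6 deposited peak lists were used, 1 per library. Per the labels and the study's methods, the authors trimmed paired-end reads with cutadapt 1.18, aligned them to mm10 with Bowtie2 2.3.4.3, removed duplicates and mitochondrial reads, shifted them to Tn5 cut sites and ran MACS2 on every library by itself. The lists' names give a p of 0.01, a limit of 300000 peaks and a blacklist filter. The deposited fold enrichment (a ratio to local background) and the deposited −log10 p and q were taken as they are. The lists held 299433 to 299620 lines. Read totals were not analysed here. A Poisson model returned whole pileups, within 0.01, for 981 of 981 summits at the loci.

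Windows of 501 bp were centred on the best ranked summits of all libraries together, and 153 of the 981 summits fell between windows, at most 485 bp from a window centre. Log2 fold enrichment was quantile-normalized and fitted with limma 3.58.1 (R 4.3.3, lmFit and eBayes with trend, two-sided, no covariates, threshold 0.05), after a test on simulated data. Promoter windows were centred within 1 kb of a TSS. Named were all promoter windows, per locus the 5 distal windows with the highest mean fold enrichment and the 3 with the smallest p, the 3 pathway genes with the smallest p, the windows at the primers and the 3 nearest promoters; Fabp4, Lpl, Cebpa, the neighbouring promoters and the Pparg sites at 115390491 and 115424582 were chosen after their values were seen. Members, lists and motifs were chosen with earlier results of these data known. Alternatives were other scalings, no trend, stricter and wider windows, ranks by p, a replicate block and leaving out each library.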

Additional observations from a re-analysis of the deposited data

How the results depend on the processing

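Of 447 fitted changes of 34 named windows, 419 kept their direction and their side of the threshold, 26 turned sign and 2 passed the threshold. At the loci the count of adjusted limma calls stayed at 0, except without the mean-variance trend, where 1 Pparg window (log2 change −1.51, limma adjusted p = 0.0201) and 1 Ppara window (1.23, limma adjusted p = 0.0249) were called, both unlisted in 1 genotype. Over all windows 64 were lower and 42 higher in DKO. These counts were 173 and 114 with median centring, 14 and 12 without scaling, 2089 and 2047 without the trend, 614 and 296 with a summit in all 6 libraries, 21 and 10 with ranks by p, and 501 and 270 with the 50000 best summits. Leaving out any library gave 0 to 1 lower and 0 to 6 higher. With the replicate number as a block they were 0 and 0, while 18196 windows had an unadjusted p under 0.05 (21131 without the block). The block made no call at the loci. Same-numbered libraries did not deviate together (r = 0.0054, −0.011 and −0.0071), so the numbers were not taken as pairs. At an unadjusted p under 0.05 the loci had 6 lower and 2 higher windows without scaling, and 1 lower and 1 higher with the 50000 best summits, which left 19 windows at the loci. Of all windows 9.31% were lower and 2.3% higher without scaling, and 4.65% and 6.02% with the 50000 best summits. Scaling moved the loci together with all windows. Without it the median change was −0.14 over all windows, −0.18 at Pparg, −0.029 at Ppara and −0.022 at Ppard. With the 50000 best summits the Ppara median, over 4 windows, was −0.15 against 0.027 for all windows. The Pparg median was near 0 and turned to 0.0042 with median centring, 0.0052 without DKO replicate 1 and 0.0035 without DKO replicate 2.

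Several windows turned sign, Pparg1 and Pparg2 each when 1 WT library was left out. Without scaling this was so for Pparg TSS 3 (−0.060), Ppard TSS 3 (−0.11), the side window of Ppard TSS 1 (−0.0052), the Ppara sites at 85716258 (−0.032) and 85710375 (−0.093), and the Ppard sites at 28256961 (−0.14) and 28226250 (−0.084). The site at 28256961 was −0.024 with the 50000 best summits and −0.19 with wider windows, and the Pparg exon site 0.038 with median centring. Leaving out each library in turn gave −0.13 to 0.65 for Pparg1, −0.36 to 0.62 for Pparg TSS 3, −0.17 to 0.65 for Pparg2, −0.10 to 0.052 for the Pparg exon site, −0.17 to 0.026 for the Pparg site at 115480437, −0.17 to 0.028 for Ppard TSS 1, −0.057 to 0.33 for its side window, −0.0046 to 0.16 for Ppard TSS 3, and −0.15 to 0.24 for the site at 28256961. The cause was not tested. The summits in the tested Pparg promoter windows held 9 to 20 cut sites.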

Other observations

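The flanks of the PPAR genes held promoters of neighbouring genes, which had 17 tested windows, 2 with a log2 change below 0 and 15 above. Of the strongest promoter windows of all protein-coding genes 64.3% lay above 0. The 17 also hold weaker windows of the same genes, such as Def6 and Tead3, so the 2 sets are unlike. The strongest of all 114 windows was the promoter of Fance, a gene of the Fanconi anaemia DNA repair pathway, with values of 25.3, 19.8 and 23.4 in the WT libraries against 22.4, 21.2 and 21.5 in the DKO libraries (log2 change 0.040 ± 0.10, SE, limma adjusted p = 0.926). The strongest promoter windows of Ttc38 (20.9, 12.4 and 19.7 in WT, 15.5, 19.2 and 16.4 in DKO) and Cdpf1 (15.3, 11.2 and 18.6 in WT, 16.1, 14.9 and 14.1 in DKO), downstream of Ppara, overlapped between genotypes, with log2 changes of 0.10 and 0.17. A second, weaker Cdpf1 promoter window, at 85810692 to 85811192, did not overlap, with 4.68, 4.45 and 4.57 in WT and 5.32, 5.06 and 5.41 in DKO (log2 change 0.37 ± 0.22, SE, limma adjusted p = 0.486). The 2 neighbouring promoter windows with an unadjusted p under 0.05 lay upstream of Ppard in coding exons of Def6, which encodes a guanine nucleotide exchange factor. One, at 28217518 to 28218018, had 3.50, 4.55 and 6.21 in WT and 6.15, 6.43 and 8.19 in DKO (log2 change 0.74 ± 0.24, SE, limma adjusted p = 0.247). The other, at 28223423 to 28223923, had 5.45, 4.60 and 4.24 in WT and 6.84, 5.88 and 6.26 in DKO (log2 change 0.57 ± 0.22, SE, limma adjusted p = 0.345).

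The DKO lists held more summits at the 3 loci than the WT lists, although all lists were of nearly equal length. There were 154, 156 and 162 in WT and 170, 172 and 167 in DKO (exact permutation p = 0.10, two-sided, the smallest this design allows). Most of the difference was at Ppard (67, 65 and 68 in WT, 79, 76 and 72 in DKO). Tested windows with a listed summit numbered 73, 69 and 74 in WT and 71, 74 and 77 in DKO (exact permutation p = 0.50). Of all tested windows 83.5%, 81.8% and 83.8% were listed in WT and 81.6%, 81.8% and 80.4% in DKO (exact permutation p = 0.10). Of the 27 windows that were not tested, 26 were listed in 1 library, 21 of them in a DKO library and 10 in DKO replicate 3. The list of that library reached down to a −log10 p of 3.54, and that of WT replicate 2, with 2 such windows, to 3.63. The share of such windows over the whole series was not computed, so these counts have no background. Their cause was not tested. One tested window was listed in every WT library but in no DKO library, and 2 in every DKO library but in no WT library. Of all tested windows 1.23% and 1.14% were listed in these ways.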
